A study of Mus musculus with 16 samples.

Results

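The genes described here act in DNA repair and the DNA damage checkpoint, and include the breast cancer genes Brca1, Brca2 and Palb2 and the genes of the Fanconi anaemia pathway. A list of 34 such genes was followed by symbol, and each gene was read by its brightest probe set, taken by the mean of the 16 arrays. Of the 34 genes, 32 had a probe set carrying their symbol alone, among 17097 genes named in this way. Xrcc2 and Polq were not analysed here.

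RNA was measured on Affymetrix mouse arrays in epithelial cells sorted from the mammary glands of 4 female mice aged 10 weeks. The labels give 2 mice as Sox2-Cre +/+ ; Cpeb2 -/- (knockout) and 2 as Sox2-Cre +/+ ; Cpeb2 +/+ (wild type), all of the strain C57BL/6J 129 and the line DMI. Cpeb2 codes for a cytoplasmic polyadenylation element binding protein, which attaches to messenger RNAs and acts on their translation. Sox2-Cre acts in the early embryo, so a gene flanked by loxP sites is lost in all tissues and not in the epithelium alone, and every mouse used here carries the Cre. Each mouse gave 4 sorted populations, which makes 16 arrays in 8 groups of 2. The populations were non-clonogenic luminal cells (Sca1+CD49b-), ductal progenitors (Sca1+CD49b+), alveolar progenitors (Sca1-CD49b+) and myoepithelial cells, the contractile outer layer of the gland (Epcam low, CD49f high). Knockout mouse 1 and wild-type mouse 1 shared their parents, as did knockout mouse 2 and wild-type mouse 2. With 2 mice per genotype, p-values rest on a spread estimated over all groups together. The 4 arrays of a mouse enter with 1 correlation shared by all genes, 0.0383, so they count almost as separate samples. The p-values for the mean of the 4 populations thus do not measure the spread between mice alone.

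Homologous recombination copies an intact sister chromatid to mend a broken DNA strand pair, so it works mainly in cells that are replicating or have replicated their DNA. BRCA1 with its partner BARD1 starts the repair, and PALB2 links it to BRCA2, which acts at a later step. The Fanconi core complex adds ubiquitin to FANCD2 and FANCI at crosslinks that block replication forks, while the kinases ATM and ATR and their targets CHK2 and CHK1 hold the cell cycle until the damage is mended. Women who carry a faulty BRCA1 or BRCA2 gene have a raised risk of breast cancer, and many genes of these pathways are transcribed most strongly as cells enter S phase, under the E2F transcription factors.

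Because many of the genes moved together between arrays, their promoters were read for E2F-type letters, and 6 of them are printed for genes that carry the results below. They come from RefSeq on mouse build GRCm38.p6 and run 5′ to 3′ along the gene, from 250 bases before to 30 bases after the start of a transcript. That start need not be the outermost one of the gene. The gene table begins Brca2 at 150522297 and, on the minus strand, Fancg at 43010567, so both windows lie inside these genes. Topbp1 begins at 103305167 and Chek2 at 110839800, within their windows and before the start used. Capitals mark the E2F-type matches on either strand, and Parp1 is shown as a gene that was lower in the knockout and has none.
Brca1 (chr11:101551926-101552205, minus strand): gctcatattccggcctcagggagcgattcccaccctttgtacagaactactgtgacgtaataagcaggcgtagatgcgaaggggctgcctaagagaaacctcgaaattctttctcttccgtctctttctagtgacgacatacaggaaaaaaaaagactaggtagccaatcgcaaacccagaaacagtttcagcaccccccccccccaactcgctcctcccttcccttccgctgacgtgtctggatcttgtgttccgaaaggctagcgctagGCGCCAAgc
Brca2 (chr5:150522371-150522650, plus strand): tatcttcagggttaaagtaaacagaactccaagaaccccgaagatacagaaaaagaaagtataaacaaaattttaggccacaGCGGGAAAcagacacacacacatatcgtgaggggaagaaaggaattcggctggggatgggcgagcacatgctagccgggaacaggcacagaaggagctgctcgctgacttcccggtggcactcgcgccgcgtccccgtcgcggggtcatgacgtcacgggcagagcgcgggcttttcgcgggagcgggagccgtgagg
Topbp1 (chr9:103305077-103305356, plus strand): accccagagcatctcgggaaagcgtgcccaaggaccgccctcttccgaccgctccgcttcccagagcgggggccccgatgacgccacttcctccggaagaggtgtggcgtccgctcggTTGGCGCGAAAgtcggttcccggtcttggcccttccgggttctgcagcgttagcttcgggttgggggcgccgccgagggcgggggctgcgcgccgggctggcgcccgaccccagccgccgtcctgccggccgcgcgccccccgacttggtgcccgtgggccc
Chek2 (chr5:110839733-110840012, plus strand): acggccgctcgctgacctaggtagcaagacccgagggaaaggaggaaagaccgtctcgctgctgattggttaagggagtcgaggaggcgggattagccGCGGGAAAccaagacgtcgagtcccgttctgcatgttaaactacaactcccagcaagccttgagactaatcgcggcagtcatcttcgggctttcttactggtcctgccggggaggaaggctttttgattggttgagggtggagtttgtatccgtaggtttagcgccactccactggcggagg
Fancg (chr4:43010272-43010551, minus strand): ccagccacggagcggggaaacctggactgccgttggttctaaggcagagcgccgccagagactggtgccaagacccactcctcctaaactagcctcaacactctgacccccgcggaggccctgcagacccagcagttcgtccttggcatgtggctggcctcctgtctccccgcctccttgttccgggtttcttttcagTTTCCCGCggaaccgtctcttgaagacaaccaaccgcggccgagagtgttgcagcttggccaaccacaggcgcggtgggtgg
Parp1 (chr1:180568641-180568920, plus strand): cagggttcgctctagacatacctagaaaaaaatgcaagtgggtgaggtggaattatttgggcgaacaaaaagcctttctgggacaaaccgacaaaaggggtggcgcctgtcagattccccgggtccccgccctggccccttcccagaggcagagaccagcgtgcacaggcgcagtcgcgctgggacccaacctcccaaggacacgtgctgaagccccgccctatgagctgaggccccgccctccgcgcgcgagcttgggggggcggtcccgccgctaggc

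At least 1 window of 250 bases before to 50 bases after a start was held for 27 of the 32 genes, and none for Fancd2, Rad50, Nbn, Exo1 and Rad54b. A gene with several windows was counted where any of them held the letters. TTCCCGC or TTGGCGC stood on one or the other strand in 13 of the 27 genes, or 48.1%, against 11.5% of 13605 measured genes with a window. Among the repair genes alone it stood in 4 of 9 with a called slope on the S-phase index described further on (44.4%), against 9 of 18 without one (50%). The longer forms TTTCCCGC, TTTCGCGC, TTTGCCGC and TTTGGCGC, which overlap the shorter ones in part, stood in 7 of 27, or 25.9%, against 3.79% of all. They stood in 4 of 9 genes with a called S-phase slope (44.4%) and in 3 of 18 without one (16.7%). By the knockout calls given below, the shorter forms stood in 8 of 13 genes called lower (61.5%) and 5 of 14 not called (35.7%). The longer ones stood in 6 of 13 (46.2%) and 1 of 14 (7.14%). These splits were not tested. In Brca1 the match began at base 21 relative to the start, in Fancg at base -52 and in Chek2 at base -152. TTTGAA, a letter string found in promoters of mitotic genes, stood in 2 of 27 genes (7.41%, against 15.6% of all). CCAAT stood in 16 of 27 (59.3%, against 42.3%). A match describes the letters only, and its absence says only that these letters are not in this window.

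The sorted populations carried the markers of their labels. The mean of 7 myoepithelial markers was 11.95 to 12.18 log2 units in the 4 myoepithelial arrays, against 6.19 to 7.27 in the 12 luminal arrays. Cpeb2 RNA differed by -0.92 ± 0.21 log2 units, knockout minus wild type, on its brightest probe set in the mean of the 4 populations (SE of the fit, limma adjusted p = 0.0201). It read 6.42 and 7.67 in knockout and 8.33 and 8.66 in wild-type non-clonogenic luminal cells, and 5.45 and 4.81 in knockout and 5.52 and 5.53 in wild-type alveolar progenitors. The dimmer Cpeb2 probe sets differed by -0.33 ± 0.17 and -0.28 ± 0.17 in the mean of the 4 populations, and neither was called over all probe sets. The sources used here do not place the Cpeb2 probe sets against the deleted exons, and one that lies outside them would be no check on the genotype. Markers of other cells moved with genotype in all 4 populations. Knockout and wild-type arrays did not overlap for 20 of 32 pairs of a marker list and a population. These pairs include each population's own markers and gaps in either direction. Such gaps are common with 2 arrays per group. In non-clonogenic luminal cells both knockout arrays lay below both wild-type arrays for 22.1% of all genes. The count of pairs was not tested against such a share. The mean of 5 fibroblast markers was 6.82 and 7.09 in knockout and between 7.41 and 8.83 in wild-type ductal progenitors, and that of 4 endothelial markers was 7.16 to 7.76 in knockout and 6.54 to 6.76 in wild-type myoepithelial cells. The fibroblast markers were also at 6.11 and 6.71 in knockout and 6.95 to 7.02 in wild-type non-clonogenic luminal cells. The mean of 4 hormone-sensing markers was 11.26 to 11.39 in knockout and 10.72 to 10.79 in wild-type ductal progenitors. The 7 myoepithelial markers averaged 6.91 to 6.99 in knockout and 7.24 to 7.27 in wild-type alveolar progenitors, and 2 red cell markers 8.10 to 8.21 in knockout and 8.81 to 8.89 in wild-type myoepithelial cells. The 7 leukocyte markers averaged 5.51 to 6.23 over all arrays. The control probe sets for the 3′ end of Gapdh minus those for its middle, a sign of RNA quality, read 0.15 and 0.12 in knockout and 0.60 and 0.39 in wild-type ductal progenitors, and 0.49 and 0.23 in knockout and 0.14 and 0.18 in wild-type alveolar progenitors. The part of these values in the results was not tested.

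Repair genes were broadly lower in the knockout mice. Of the 32 genes, 16 were called lower in the mean of the 4 populations and 0 were called higher (limma, Benjamini-Hochberg adjusted p under 0.05 over all genes), while 7.04% of all genes were called lower and 3.18% higher. The fitted difference was below 0 in 30 of 32 genes, with a median of -0.42 log2 units against 0.02 over all genes. In 11 of the 32 genes both knockout arrays lay below both wild-type arrays in every population, as they did in 3.07% of all genes. These 11 were Brca1, Palb2, Brca2, Blm, Fancd2, Chek1, Chek2, Clspn, Topbp1, Parp1 and Exo1. In sorted bulk cells, fewer cells in S phase and less RNA per cell cannot be told apart. The 16 calls did not all stand without each mouse: 7 remained when knockout mouse 1 was left out and 2 when knockout mouse 2 was, against 15 when either wild-type mouse was. Brca1 and Exo1 were called in all 4 of these fits. With the parent pair as a block 23 genes were called, the 16 and also Brip1, Eme1, Fancb, Fanci, Fancm, Msh6 and Nbn.

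**Figure D1:**
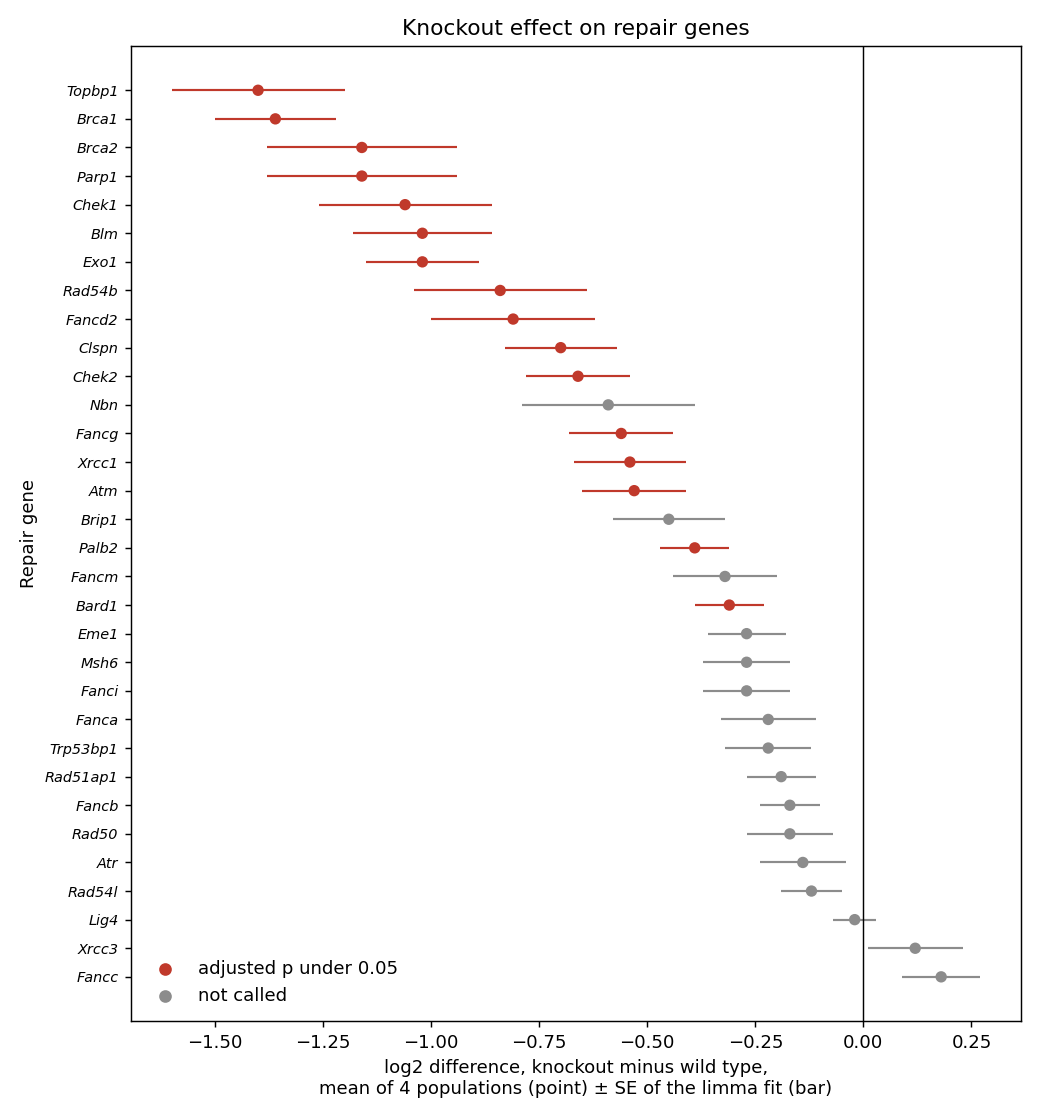
Difference between knockout and wild type for each of the 32 repair genes (vertical axis), in log2 units (horizontal axis), averaged over the 4 populations, with the standard error of the fit as a bar. The 16 called genes are red, all of them lie left of 0, and Topbp1 and Brca1 lie farthest left at -1.40 and -1.36.

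Among the BRCA1 complex genes, 4 of 5 were called lower. Brca1, the ubiquitin ligase that starts recombination repair, ranked 22 of 17097 genes by p. Over the 8 arrays of each genotype its level ran from 6.53 to 7.32 with a median of 6.88 in knockout cells, and from 7.33 to 9.10 with a median of 8.43 in wild-type cells. Every knockout array lay below every wild-type array, though the gap between the nearest arrays, which came from different populations, was small. The difference was -1.36 ± 0.14 (adjusted p = 0.000376). Its next 2 probe sets by brightness differed by -2.14 ± 0.25 and -1.43 ± 0.23, both called over all probe sets, and the dimmest by -0.11 ± 0.05, not called.

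Brca2, which acts after BRCA1 in recombination repair, read 4.97 to 5.58 in knockout arrays (median 5.27) and 5.50 to 7.54 in wild-type arrays (median 6.14). The genotypes met only at the top of the knockout and the foot of the wild-type range, and 3 knockout arrays lay under the lower quartile of their probe sets, which was 5.08 to 5.18. Its difference was -1.16 ± 0.22 (adjusted p = 0.00661). Where the knockout side lies under that quartile, a difference may be a lower bound in size. Palb2, the bridge between BRCA1 and BRCA2, was called lower at -0.39 ± 0.08 (adjusted p = 0.0116). Bard1, the BRCA1 partner, was called lower at -0.31 ± 0.08 (adjusted p = 0.0352), with all 8 knockout arrays under the lower quartile. Brip1, a helicase that binds BRCA1, differed by -0.45 ± 0.13 and was not called (adjusted p = 0.0536).

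Of the 6 recombination genes measured, Blm and Rad54b were called lower. Blm, the helicase mutated in Bloom syndrome, read 6.68 to 6.94 in knockout arrays (median 6.79) and 7.07 to 8.61 in wild-type arrays (median 7.82), with no overlap. Knockout levels of Blm were close together in all 4 populations, while wild-type levels were spread over more than a log2 unit. The difference was -1.02 ± 0.16 (adjusted p = 0.00302). Rad54b, a DNA translocase, differed by -0.84 ± 0.20 (adjusted p = 0.0225), from a knockout side that lay under the lower quartile in all 8 arrays. Rad54l, a related translocase, differed by -0.12 ± 0.07 and Eme1, a subunit of the MUS81 nuclease, by -0.27 ± 0.09, neither called. Xrcc3, which acts in recombination repair, was one of the 2 genes with a positive difference, at 0.12 ± 0.11 (adjusted p = 0.541).

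Rad51ap1, a recombination gene, showed how much the choice of probe set matters. Its brightest probe set read 6.15 to 6.54 in knockout arrays and 6.37 to 6.86 in wild-type arrays, a difference of -0.19 ± 0.08 that was not called. Its other 3 probe sets differed by -1.94 ± 0.31, -2.50 ± 0.31 and -0.82 ± 0.18, each called lower over all 45037 probe sets (adjusted p = 0.00433, 0.00179 and 0.0171). In non-clonogenic luminal cells the third of the 4 by brightness read 4.22 and 4.13 in knockout mice 1 and 2 and 8.30 and 7.34 in wild-type mice 1 and 2. Among the 17 genes with several probe sets, Rad51ap1 and Atr were uncalled by the brightest and called by another, and no called gene (0) had a further probe set called higher. Of the 9 called genes with several probe sets, 7 had at least 1 that was not called, among them Fancd2 at -0.27 and -0.08, Parp1 at -0.31 and Chek1 at -0.04.

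In the Fanconi pathway, 2 of 7 genes were called lower and they belong to different steps. Fancd2, the protein that receives ubiquitin at crosslinks, read 5.23 to 5.55 in knockout arrays (median 5.48) and 5.47 to 7.02 in wild-type arrays (median 6.17), a difference of -0.81 ± 0.19 (adjusted p = 0.0181). Fancg, a core complex subunit, differed by -0.56 ± 0.12 (adjusted p = 0.0108) on its brightest probe set and by -0.07 ± 0.09 on the other. Among the other 5, Fancm, the translocase that anchors the core complex, differed by -0.32 ± 0.12, Fanci, the partner of FANCD2, by -0.27 ± 0.10, Fanca by -0.22 ± 0.11 and Fancb by -0.17 ± 0.07. Fancc, a core subunit, was the other gene with a positive difference, at 0.18 ± 0.09 (adjusted p = 0.219).

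The break sensing and checkpoint genes gave 5 calls of 9. Topbp1, which switches on the kinase ATR, had the lowest fitted difference of the 32 genes. It read 7.23 to 7.84 in knockout arrays (median 7.46) and 8.06 to 9.78 in wild-type arrays (median 8.80), with no overlap and a difference of -1.40 ± 0.20 (adjusted p = 0.00203). Its second probe set differed by 0.01. Chek1, the kinase downstream of ATR, read 5.34 to 5.73 in knockout arrays (median 5.50) and 5.73 to 7.53 in wild-type arrays (median 6.39), a difference of -1.06 ± 0.20 (adjusted p = 0.00765). Clspn, the adaptor between ATR and CHK1, differed by -0.70 ± 0.13 (adjusted p = 0.00667) with no overlap between 6.21 to 6.52 in knockout and 6.70 to 7.68 in wild-type arrays. Topbp1, Clspn and Chek1 of the ATR branch were thus all called lower, while Atr itself differed by -0.14 ± 0.10 on its brightest probe set (adjusted p = 0.374) and by -0.40 on the next (adjusted p = 0.0221 over all probe sets).

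In the ATM branch, Chek2 was called lower at -0.66 ± 0.12 (adjusted p = 0.00513) and Atm at -0.53 ± 0.12 (adjusted p = 0.0169). The second probe set of Atm differed by -0.22 and was not called (adjusted p = 0.175 over all probe sets). Atm read 7.05 to 8.05 in knockout and 7.37 to 8.61 in wild-type arrays, ranges that overlap widely across populations. Nbn and Rad50, subunits of the complex that senses broken ends, differed by -0.59 ± 0.20 and -0.17 ± 0.10, and Trp53bp1, which steers breaks toward end joining, by -0.22 ± 0.10, none of them called.

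Of the 5 genes of base, mismatch and end-joining repair, 3 were called lower. Exo1, a nuclease that resects breaks and mismatches, read 5.05 to 5.49 in knockout arrays (median 5.30) and 5.53 to 7.21 in wild-type arrays (median 6.42), with no overlap and a difference of -1.02 ± 0.13 (adjusted p = 0.00125). Parp1, the sensor of broken strands that PARP inhibitors target, read 7.77 to 8.98 in knockout arrays (median 8.57) and 8.26 to 10.64 in wild-type arrays (median 9.62), a difference of -1.16 ± 0.22 (adjusted p = 0.00667). Xrcc1, the scaffold recruited by PARP1, differed by -0.54 ± 0.13 (adjusted p = 0.0232). In alveolar progenitors it ran the other way, with 7.50 and 7.66 in the knockout mice and 7.32 and 7.37 in the wild-type mice, a difference of 0.23 ± 0.25 that was not called. Msh6, a mismatch recognition subunit, differed by -0.27 ± 0.10 (adjusted p = 0.1). Lig4, the ligase of end joining, lay under the lower quartile in all 16 arrays and differed by -0.02 ± 0.05, so a change in it may not be seen.

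**Figure D2:**
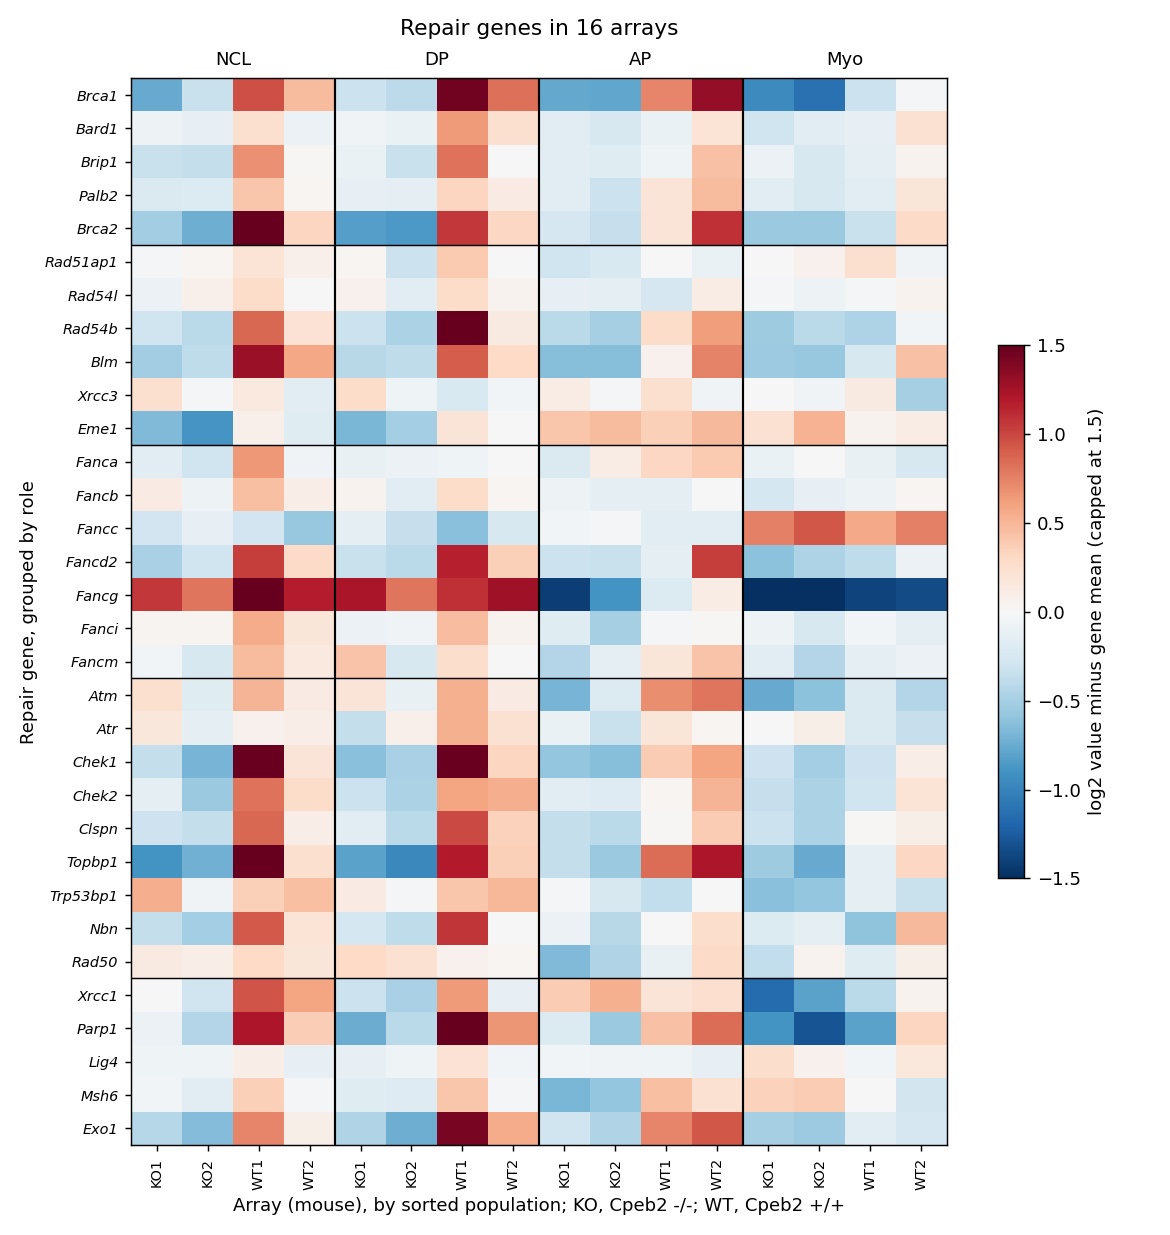
Level of each of the 32 repair genes in the 16 arrays, as a log2 difference from that gene's mean over all arrays, with colours capped at 1.5, the genes grouped by role and the arrays by population (NCL, non-clonogenic luminal; DP, ductal progenitors; AP, alveolar progenitors; Myo, myoepithelial) and genotype, knockout (KO) before wild type (WT). The knockout columns are low throughout for genes such as Topbp1, Brca1 and Exo1, while Fancg and Fancc differ mainly between populations.

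To separate genes that follow cell division from those that do not, each array was given a division index, the mean log2 level of 25 mitosis genes such as Mki67, Cdk1 and Aurkb. An S-phase index of 22 replication genes such as Mcm2, Pcna and Rrm2 served as the alternative. All of these index genes lie outside the 32 repair genes. The mitosis index read 5.96 to 6.64 in the 8 knockout arrays and 6.46 to 8.89 in the 8 wild-type arrays. The S-phase index read 7.06 to 7.47 in knockout and 7.81 to 9.78 in wild-type arrays, with no overlap. Of the 25 mitosis genes 24 were called lower in the knockout, with a median of -1.89, and of the 22 replication genes 22 were, with a median of -1.72.

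Which genes follow division was read only from differences between the 2 mice of a group, which leaves out the knockout and population differences. There are 8 such differences and they are unequal in size. For the S-phase index, wild-type mouse 1 minus wild-type mouse 2 was 1.06 both in non-clonogenic luminal cells and in ductal progenitors, -0.17 in alveolar progenitors and -0.70 in myoepithelial cells, while the knockout mice differed by 0.02 to 0.29. For the mitosis index the wild-type differences were 0.44, 0.38, -1.84 and -1.77 in the same order, and the knockout differences 0.57, 0.51, 0.48 and -0.07. The wild-type mice thus carry most of the information, and the indices part company in the alveolar progenitors of wild-type mouse 1. There the S-phase index read 9.18, near the 9.35 of wild-type mouse 2, and the mitosis index 6.90, near the knockout values of 6.64 and 6.16.

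That array splits the repair genes too. In alveolar progenitors Brca1 read 6.88 and 6.87 in knockout mice 1 and 2, and 8.38 and 8.97 in wild-type mice 1 and 2. Topbp1 read 7.84 and 7.64 in the knockout mice, and 9.04 and 9.41 in the wild-type mice. Exo1 read 5.49 and 5.33 in the knockout mice, and 6.51 and 6.72 in the wild-type mice. In these genes wild-type mouse 1 sat with wild-type mouse 2. Fancd2 read 5.53 and 5.51 in the knockout mice, and 5.70 and 6.88 in the wild-type mice. Chek2 read 6.19 and 6.16 in the knockout mice, and 6.38 and 6.86 in the wild-type mice. For Fancd2, and less clearly for Chek2, wild-type mouse 1 sat nearer to the knockout, as it did on the mitosis index. The same held for Brip1, Bard1 and Brca2, where this mouse lay 0.11, 0.11 and 0.49 above the knockout mean. Wild-type mouse 2 lay 0.62, 0.41 and 1.39 above it. These genes tracked the S-phase index in the classes given below, so this array did not split the genes along those classes.

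**Figure D3:**
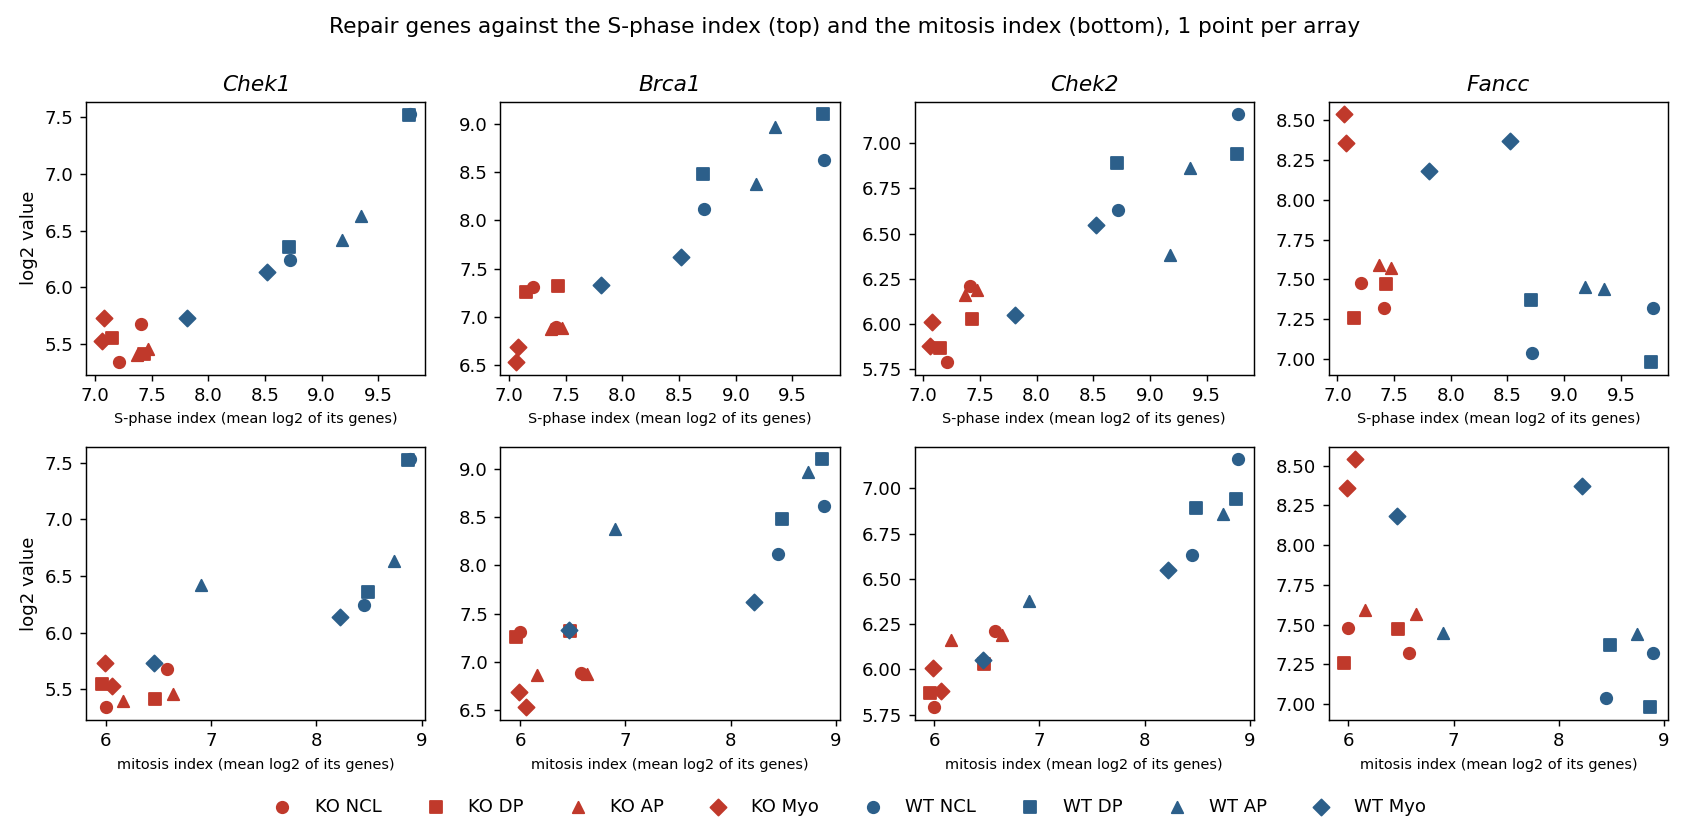
Level of Chek1, Brca1, Chek2 and Fancc (vertical axes, log2) against the S-phase index (top row, log2) and the mitosis index (bottom row, log2), with 1 point per array, the 4 populations as marker shapes (NCL, non-clonogenic luminal; DP, ductal progenitors; AP, alveolar progenitors; Myo, myoepithelial) and the genotypes as colours. The 8 knockout arrays cluster at S-phase index values of 7.06 to 7.47, and the wild-type arrays spread from 7.81 to 9.78.

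The genes fell into classes by their correlation with each index after the mean of each group was subtracted, over 16 arrays that hold 8 independent differences. The 4 arrays of a mouse share that mouse, and these correlations are a description. A gene was said to track an index at r of 0.8 or more, to lie between at 0.5 up to 0.8, and not to track it below 0.5. By the mitosis index, 3 of 32 genes tracked division: Chek2 at r = 0.85, Palb2 at 0.81 and Bard1 at 0.80. Another 12 lay between and 17 did not track it, with Clspn just under the lower limit at 0.50 and Rad54b at 0.49. Of the other genes on the array 1.58% tracked the mitosis index and 84.7% did not.

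By the S-phase index, 15 of 32 genes tracked division, against 2.2% of the other genes. They were Nbn and Chek1 at r = 0.94, Topbp1 at 0.92, Clspn, Bard1, Rad54b and Brip1 at 0.90, Brca2 at 0.89, Xrcc1 at 0.87, Exo1, Parp1 and Fancb at 0.86, Blm at 0.85, Palb2 at 0.84 and Lig4 at 0.82. Between the limits lay 9 genes, among them Brca1 at 0.74, Fancd2 at 0.72 and Chek2 at 0.70, down to Atm at 0.50. The 8 that did not track it were Fanca at 0.42, Rad51ap1 at 0.38, Rad50 at 0.35, Fancg at 0.26, Atr at 0.11, Fancc at 0.03, Trp53bp1 at -0.06 and Xrcc3 at -0.13. The median r of the 32 genes was 0.73 for the S-phase index, against -0.04 over all genes, and 0.49 for the mitosis index, against 0.05. The class depended on the probe set, and in 13 of the 17 genes with several another probe set fell in a different S-phase class. Those of Rad51ap1 had r of 0.91, 0.78 and 0.93, and among the others Brca1 reached 0.86 and Fancd2 0.87, while Topbp1 went down to 0.48, Parp1 to 0.54 and Chek1 to 0.21. Without the 4 alveolar progenitor arrays, 17 genes tracked the S-phase index and 2 the mitosis index. Over the 8 knockout arrays alone 5 tracked the S-phase index, and over the 8 wild-type arrays alone 19. The arrays of 1 genotype hold only 4 differences, and the share of other genes was not taken there. These 2 counts thus cannot be set against the 15.

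The knockout difference, which had not entered the S-phase classes, was set beside them. Of the 15 genes that tracked the index 11 were called lower in the knockout, with a median difference of -0.70. Of the 9 between 4 were called, with a median of -0.32, and of the 8 that did not track it 1 was called, with a median of -0.18. That gene was Fancg. By the mitosis index 3 of 3, 7 of 12 and 6 of 17 genes were called, with medians of -0.39, -0.70 and -0.27.

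**Figure D4:**
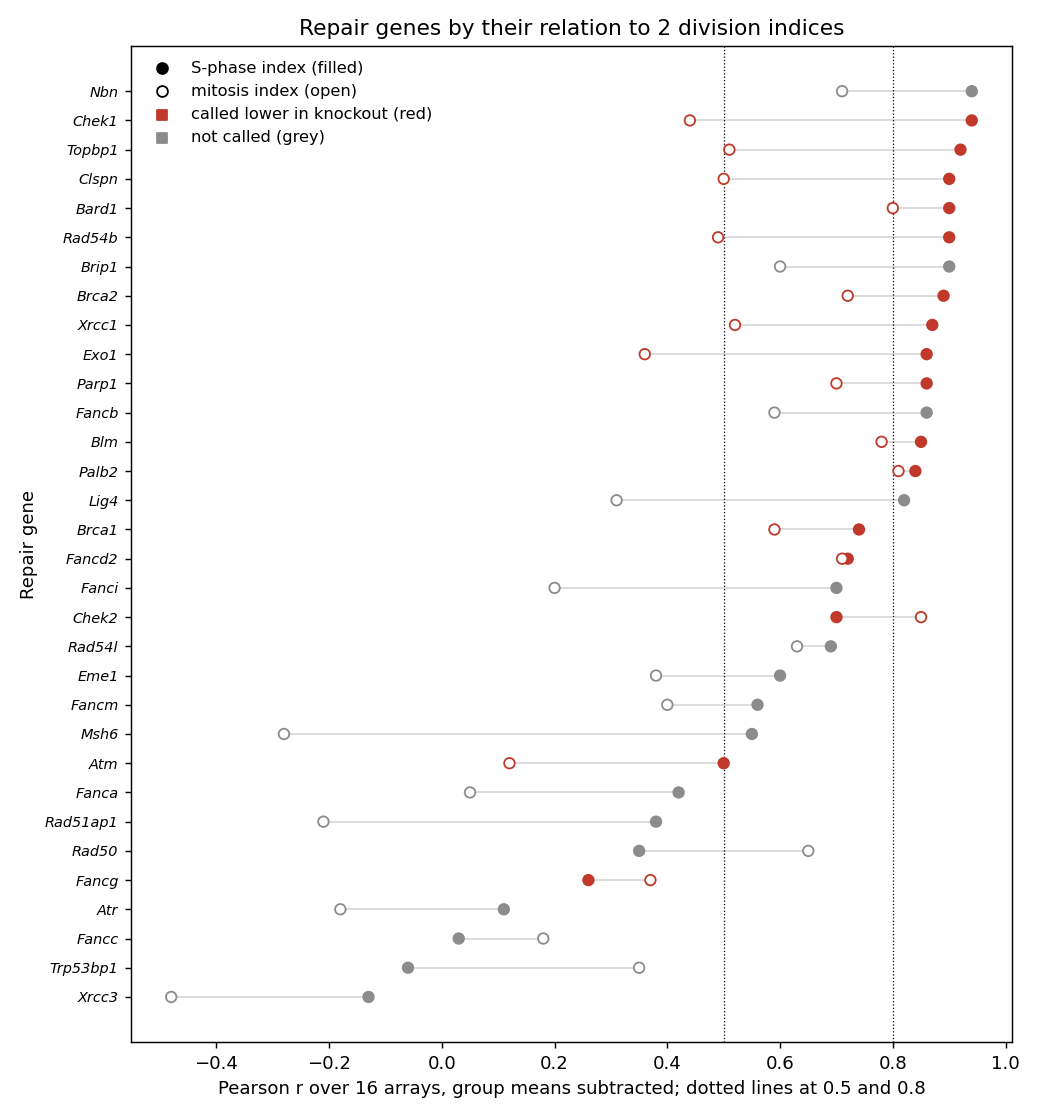
Correlation of each repair gene (vertical axis) with the S-phase index (filled points) and the mitosis index (open points) after subtraction of group means, over 16 arrays (horizontal axis, Pearson r), with genes called lower in the knockout in red and the others in grey. For most genes the filled point lies to the right of the open one, and Fanca, Rad51ap1, Rad50, Fancg, Atr, Fancc, Trp53bp1 and Xrcc3 lie below 0.5 on the S-phase index.

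A slope on each index was also fitted beside the group means. On the mitosis index 0 of 32 genes had a called slope, although 15 had an unadjusted p under 0.05 and 0.491% of all genes were called with a positive slope. On the S-phase index 12 of 32 genes had a called positive slope, against 1.48% of all genes. Chek1 rose by 1.0 ± 0.12 log2 units per unit of the index (limma adjusted p = 0.00329), Nbn by 0.99 ± 0.14 (adjusted p = 0.00494) and Brca2 by 1.04 ± 0.17 (adjusted p = 0.0112). Rad54b, Topbp1, Brip1, Bard1, Parp1, Blm, Clspn, Exo1 and Xrcc1 made up the rest, with slopes of 0.39 to 0.97. A slope fit without 1 mouse loses every difference within that mouse's genotype and rests on the other genotype alone. Such fits cannot show how far the slopes lean on single mice.

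With the index in the model, the knockout difference at equal index was called for 0 of 32 genes on either index, and for 0 genes of the whole array on the mitosis index and 8 on the S-phase index. The fitted difference of Brca1 was -0.83 ± 0.25 at equal mitosis index and -0.47 ± 0.30 at equal S-phase index, against -1.36 ± 0.14 without one. That of Topbp1 was -0.66 ± 0.36 and 0.20 ± 0.29, against -1.40 ± 0.20. Knockout and wild-type arrays do not overlap on the S-phase index. On the mitosis index they do not overlap within any population, with the nearest at 6.64 in knockout and 6.90 in wild-type alveolar progenitors. The values at equal index thus extend each fitted line past the arrays that were measured, on both indices.

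Within single populations fewer genes were called. The fitted difference was below 0 in 30 of the 32 genes in non-clonogenic luminal cells, 29 in ductal progenitors, 27 in alveolar progenitors and 25 in myoepithelial cells. In ductal progenitors 9 of 32 genes were called lower, against 4.35% of all genes: Exo1, Brca1, Topbp1, Chek2, Eme1, Parp1, Clspn, Chek1 and Brca2. Exo1 read 5.33 and 5.05 in knockout mice 1 and 2, and 7.21 and 6.34 in wild-type mice 1 and 2, a difference of -1.59 ± 0.25 (adjusted p = 0.00732). Parp1 read 8.32 and 8.66 in the knockout mice, and 10.64 and 9.73 in the wild-type mice, a difference of -1.70 ± 0.41 (adjusted p = 0.0333). Both wild-type mice lay more than a log2 unit above both knockout mice in each of these 2 genes. All 9 calls were lost when either knockout mouse was left out, where calls over all genes fell as well. Clspn, Eme1 and Parp1 lost theirs when wild-type mouse 1 was left out. All 9 were kept when wild-type mouse 2 was left out, where more repair genes and more of all genes were called.

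In non-clonogenic luminal cells 4 of 32 genes were called lower, against 1.73% of all genes: Brca1 at -1.27 ± 0.26, Blm at -1.38 ± 0.30, Topbp1 at -1.71 ± 0.38 and Eme1 at -0.72 ± 0.17 (adjusted p = 0.0336 to 0.0499). Topbp1 read 7.31 and 7.48 in the knockout mice, and 9.78 and 8.44 in the wild-type mice. Eme1 read 7.46 and 7.24 in the knockout mice, and 8.20 and 7.94 in the wild-type mice. These calls sat near the threshold, and all 4 were lost without either knockout mouse and after a second quantile normalization. Eme1 was also lost without either wild-type mouse and Brca1 without wild-type mouse 1. With the parent pair as a block the adjusted p of Eme1 was 0.0506, and Exo1 was called in its place.

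Alveolar progenitors gave 4 calls, against 0.351% of all genes. Brca1 had its lowest difference there, at -1.80 ± 0.26 (adjusted p = 0.0101). Atm read 7.11 and 7.60 in the knockout mice, and 8.50 and 8.61 in the wild-type mice, a difference of -1.20 ± 0.23 (adjusted p = 0.0422). Msh6 read 7.67 and 7.77 in the knockout mice, and 8.80 and 8.58 in the wild-type mice, a difference of -0.97 ± 0.19 (adjusted p = 0.0436). Fancg read 6.18 and 6.69 in the knockout mice, and 7.38 and 7.70 in the wild-type mice, a difference of -1.11 ± 0.22 (adjusted p = 0.0466). In all 4 genes both wild-type mice lay above both knockout mice. Atm, Msh6 and Fancg were not called in the other 3 populations, but the test of a difference between populations was not passed by them (adjusted p = 0.265, 0.0699 and 0.299). All 4 calls were lost without either knockout mouse. When wild-type mouse 1 was left out Brca1 was the only 1 of these 4 still called, though more repair genes and more of all genes were called. Atm and Fancg were also lost when wild-type mouse 2 was left out. A second quantile normalization left 1 call. With the parent pair as a block the adjusted p of Fancg was 0.0517, and Exo1 was called in its place.

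In myoepithelial cells 0 of 32 genes were called lower, although 4 had an unadjusted p under 0.05, and 0.567% of all genes were called lower. The median difference was -0.22, against -0.50 to -0.51 in the 3 luminal populations. Wild-type mouse 1 was low on both indices there. Without that mouse more repair genes were called, as were more of all genes. Msh6 had its highest difference in these cells, at 0.51 ± 0.19 (adjusted p = 0.245), from 8.70 and 8.73 in the knockout mice and 8.35 and 8.07 in the wild-type mice. The test of whether the knockout difference varies between populations was passed by 0 of 32 genes, against 0.667% of all genes, with the smallest adjusted p at 0.0699 for Msh6 and 0.0877 for Eme1. Without wild-type mouse 2 more repair genes passed it, but so did more of all genes.

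Levels differed among the 4 populations for 10 of 32 genes, below the 49.8% of all genes (F test in the same fit). Fancg stood out, with a difference of -2.18 ± 0.12 between myoepithelial cells and the luminal mean (adjusted p = 2.85e-08). It read 8.65 and 8.39 in knockout and 9.11 and 8.76 in wild-type non-clonogenic luminal cells, and 8.81 and 8.39 in knockout and 8.68 and 8.86 in wild-type ductal progenitors. It read 6.18 and 6.69 in knockout and 7.38 and 7.70 in wild-type alveolar progenitors, and 5.58 and 5.77 in knockout and 6.20 and 6.25 in wild-type myoepithelial cells. The Sca1+ populations were thus high, alveolar progenitors lower and myoepithelial cells lowest in every mouse. Non-clonogenic luminal cells and ductal progenitors did not differ beyond their spread, at 0.04 ± 0.15 (adjusted p = 0.999), while ductal exceeded alveolar progenitors by 1.70 ± 0.15 (adjusted p = 7.83e-06). The second probe set of Fancg gave the same direction at a smaller size, with -0.50 ± 0.09 between myoepithelial cells and the luminal mean (adjusted p = 0.00105). On it the order of the lowest populations was not shared by all mice, since the knockout mice read 6.63 and 6.50 in myoepithelial cells and 6.43 and 6.46 in alveolar progenitors.

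Fancc ran the other way and was 1.0 ± 0.10 higher in myoepithelial than in luminal cells (adjusted p = 3.28e-06). It read 8.36 and 8.54 in knockout and 8.18 and 8.37 in wild-type myoepithelial cells, while all 12 luminal arrays lay between 6.98 and 7.59. The difference was 1.0 in knockout arrays alone and 1.01 in wild-type arrays alone, and 0.85 on the second probe set. Fancg and Fancc, which code for subunits of the same core complex, thus had opposite orders over the populations, and neither tracked an index.

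In myoepithelial against luminal cells, 10 of 32 genes were called, 7 lower and 3 higher, against 48.0% of all genes. The lower ones beside Fancg were Brca1 at -0.81 ± 0.15 (adjusted p = 0.000728), Xrcc1 at -0.77 ± 0.14 (adjusted p = 0.000651), Trp53bp1 at -0.56 ± 0.11 (adjusted p = 0.00087), Atm at -0.68 ± 0.13 (adjusted p = 0.000953), Parp1 at -0.89 ± 0.23 (adjusted p = 0.00701) and Exo1 at -0.49 ± 0.14 (adjusted p = 0.0127). Lig4 was called higher at 0.15 ± 0.06, though it lay under the lower quartile in every array. Its call was lost with no block, without the trend, with array weights and after a second quantile normalization. It was also lost with the most variable probe set per gene, with the filter on dim probe sets and in wild-type arrays alone. Parp1 and Exo1 lost their calls when either knockout mouse was left out, and Lig4 lost its call without each mouse except wild-type mouse 1 and with the parent pair as a block (adjusted p = 0.0503). The lower level of Trp53bp1 was seen on all 3 of its probe sets, at -0.56, -0.63 and -0.81. Brca1 and Exo1 differed by -1.14 ± 0.21 and -0.95 ± 0.20 in wild-type arrays alone. In knockout arrays alone they differed by -0.48 ± 0.21 and -0.02 ± 0.20, where neither was called. Parp1 was not called in knockout arrays alone either.

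Eme1 was the third gene called higher, at 0.30 ± 0.09 (adjusted p = 0.0201), a call kept only when wild-type mouse 1 was the one left out. The values differed by genotype, although the test of whether its knockout difference varies between populations was not passed (adjusted p = 0.0877). In knockout arrays alone myoepithelial cells were 0.68 ± 0.13 above the luminal mean (adjusted p = 0.00164), and in wild-type arrays alone the difference was -0.08 ± 0.13 (adjusted p = 0.657). Ductal minus alveolar progenitors gave -1.04 ± 0.16 in knockout arrays and -0.33 ± 0.16 in wild-type arrays. Its knockout levels were 7.24 to 7.61 in the Sca1+ populations, non-clonogenic luminal cells and ductal progenitors, and 8.35 to 8.64 in the other 2 populations, while its wild-type levels were 7.94 to 8.61 in all 4.

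Among the luminal populations few genes were called. Non-clonogenic luminal cells and ductal progenitors differed in 0 of 32 genes (1 had an unadjusted p under 0.05; 0.795% of all genes were called). Ductal and alveolar progenitors differed in 3, namely Fancg, Eme1 and Trp53bp1, against 22.0% of all genes. Non-clonogenic luminal cells and alveolar progenitors differed in 5, namely Fancg, Eme1, Fanci, Rad50 and Trp53bp1, against 28.5% of all genes. Of these calls, those of Fancg and Eme1 stood when any 1 mouse was left out, and those of Trp53bp1, Fanci and Rad50 did not. In wild-type arrays alone Eme1 was called in neither (adjusted p = 0.234 for ductal minus alveolar progenitors, and 0.0622 where non-clonogenic luminal cells take the place of ductal progenitors). With the parent pair as a block the adjusted p of Trp53bp1 between ductal and alveolar progenitors was 0.0538.

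**Figure D5:**
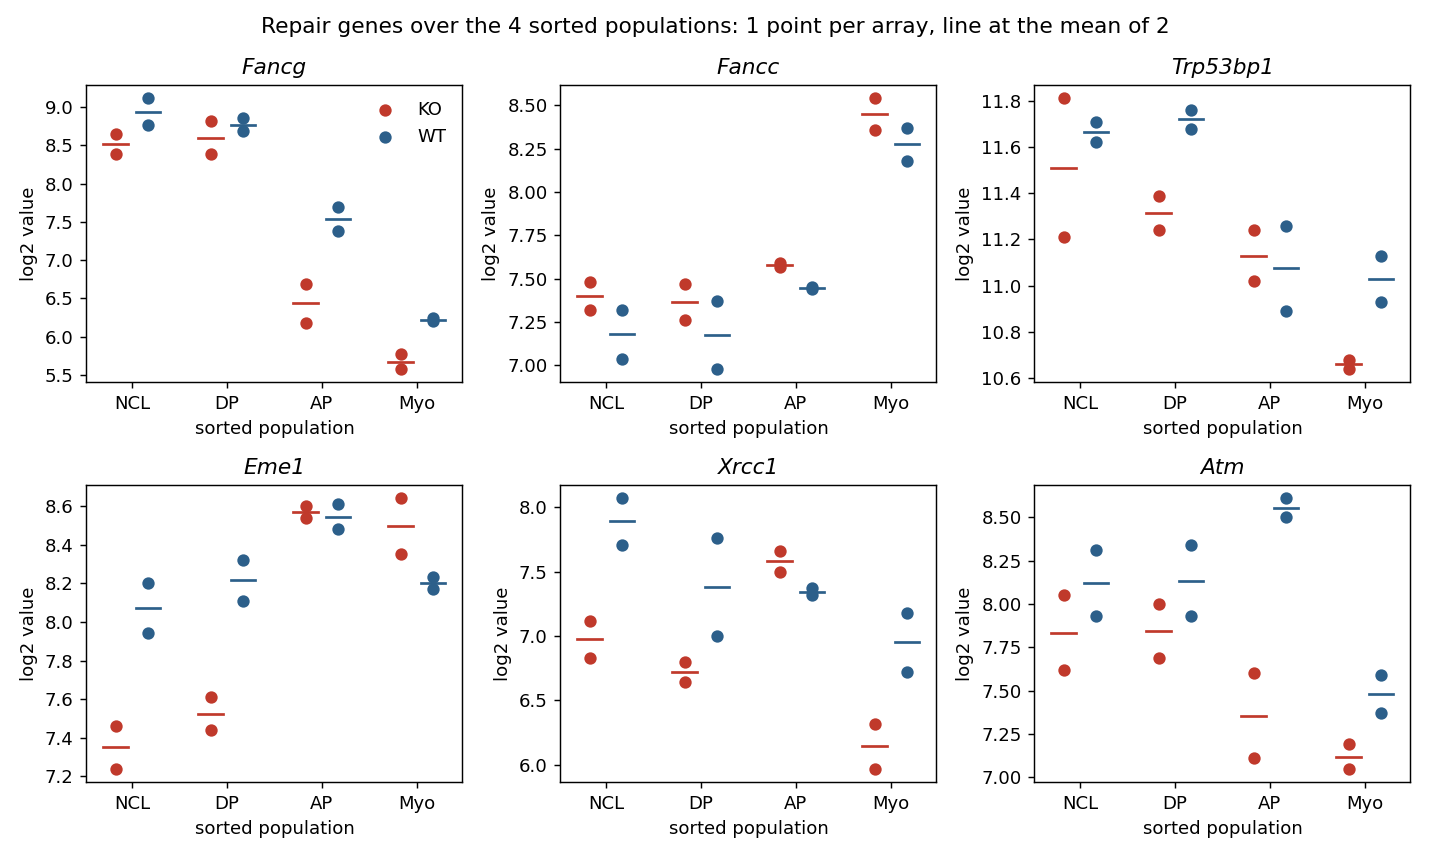
Levels (vertical axes, log2) of 6 repair genes in the 4 sorted populations (horizontal axes; NCL, non-clonogenic luminal; DP, ductal progenitors; AP, alveolar progenitors; Myo, myoepithelial), with knockout left of wild type, 1 point per array and a line at the mean of 2. Fancg falls across the populations to 5.58 to 6.25 in myoepithelial cells, and Fancc is highest there at 8.18 to 8.54.

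Further lists of repair genes had 0 genes called higher in the mean of the 4 populations, and their shares called lower are to be read against the 7.04% of all genes. Of 19 further recombination genes measured 6 were called lower, among them the replication protein A subunits Rpa1 at -1.22, Rpa2 at -1.55 and Rpa3 at -1.38, which coat exposed DNA strands, and Rad51c, which acts in recombination repair, at -0.81. Of 11 further Fanconi genes 3 were called lower, namely Usp1 at -1.22 and Ube2t at -1.16, which remove and add the ubiquitin of FANCD2, and the core ligase Fancl at -0.74. Of 14 further genes of base excision 3 were called lower, with Lig1, the ligase of replication forks, at -2.09 ± 0.20 (adjusted p = 0.000295), the uracil glycosylase Ung at -1.64 and Neil3 at -0.38. Of 17 further checkpoint genes 4 were called lower, among them the fork protection partners Timeless at -1.33 and Tipin at -1.39. Among the rest, 2 of 9 end-joining genes, 2 of 4 mismatch repair genes and 1 of 11 nucleotide excision genes were called lower, at -0.40 to -0.53. The medians ran from -0.35 for mismatch repair to 0.00 for nucleotide excision, against 0.02 over all genes.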

How the data were processed

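The values are log2 expression levels per probe set as deposited by the authors, 1 column for each of the 16 arrays. Per the labels' protocols, 15 ng of RNA was amplified and 8 µg of cDNA was labelled. RMA and limma are named in the submitters' processing notes, with no role or version. The sources used here give neither the background correction nor any batch step. Array medians were 6.35 to 6.40 and arrays of a group correlated at r = 0.975 to 0.991. Precision is limited by 2 arrays per group.

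Of 45141 probe sets, 28898 had 1 gene symbol, 551 several and 15588 none, and 104 were controls. Entrez identifiers of 28689 matched the GRCm38.p6 gene table, and 0 symbols changed. The probe set with the highest mean was kept for each of 17097 genes, of which 7180 had several.

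All arrays entered 1 limma fit (version 3.58.1, R 4.3.3, statmod 1.5.0) with 8 group means, the mouse as a random block (consensus correlation 0.0383) and eBayes with a trend (8 residual and 3.9 prior degrees of freedom). Calls were made where the Benjamini-Hochberg adjusted p over all genes was below 0.05. Differences are log2, with the standard error of the fit. An index entered as a covariate leaves 7 residual degrees of freedom. The fit was run on simulated data with independent noise, 1 spread per gene for both genotypes and no mouse effect. It therefore says nothing on a spread that differs by genotype or on arrays that share a mouse.

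The pairing by parents comes from the labels. The deviations of same-numbered mice correlated across genes at 0.07, -0.01, 0.06 and -0.04 in the 4 populations. The main fit has no parent block, and blocked values are given where they change a call. The text may name the 32 genes, Cpeb2, the index genes and up to 4 called genes per other list. The genes, lists, indices and limits were chosen with earlier results of these data known. Leaving out populations for the classes, genotype-wise correlations with the S-phase index, S-phase slopes without 1 mouse and the fit of every probe set were added after seeing the data. The other alternatives changed the block, trend, array weights, normalization, probe set, filter, index, limits and mice.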

Additional observations from a re-analysis of the deposited data

How the results depend on the processing

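With 2 mice per genotype the counts of calls depend on which mice are kept. In the mean of the 4 populations, the difference stayed below 0 in all 16 called genes when any 1 mouse was left out. Brca1 ran from -1.39 to -1.33, Fancd2 from -0.85 to -0.78 and, more widely, Chek1 from -1.29 to -0.83. A fit without a knockout mouse takes its within-group spread from wild-type arrays alone, and the reverse holds without a wild-type mouse. The part of this in the counts was not tested, and the calls over all genes moved in the same fits. Without 1 mouse in turn, the repair genes called lower ranged from 2 to 18 in the mean of the 4 populations (16 with all mice), 0 to 16 in non-clonogenic luminal cells (4), 0 to 20 in ductal progenitors (9), 0 to 11 in alveolar progenitors (4) and 0 to 8 in myoepithelial cells (0). The genes whose difference varied between populations ranged from 0 to 11 (0), those that differed among populations from 4 to 25 (10), in myoepithelial against luminal cells from 6 to 21 (10), between non-clonogenic luminal cells and ductal progenitors from 0 to 2 (0), between ductal and alveolar progenitors from 2 to 12 (3) and between non-clonogenic luminal cells and alveolar progenitors from 2 to 15 (5). For the slopes, leaving out 1 mouse removes every difference within its genotype, so these fits are not set beside the 12 S-phase slopes called with all mice. Over all genes the calls in the mean of the 4 populations were 645 without knockout mouse 1 and 279 without knockout mouse 2, against 1748.

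The replicate block by parent pair gave 23 repair genes and 3431 genes in all, kept the 16 repair genes in the mean of the 4 populations, and left the counts of the other comparisons within 1.5 times. It ended the calls of Eme1 in non-clonogenic luminal cells, Fancg in alveolar progenitors, Lig4 in myoepithelial against luminal cells and Trp53bp1 in ductal against alveolar progenitors (adjusted p = 0.0503 to 0.0538). In non-clonogenic luminal cells the count was 2 without the trend, 7 with array weights and 0 after a second quantile normalization. In alveolar progenitors it was 8 with array weights, 1 after quantile normalization, 1 with the mean of all probe sets and 0 with the most variable probe set. A filter on dim probe sets gave 1 gene whose difference varied between populations. Non-clonogenic luminal cells against alveolar progenitors gave 2 genes in wild-type arrays alone and 3 in knockout arrays alone. Array weights moved the calls over all genes to 847 from 1272 in ductal progenitors, 389 from 106 in alveolar progenitors and 50 from 173 in myoepithelial cells.

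The genes that tracked division numbered 3 in the main setting, 15 with the S-phase index, 15 about population means, 15 with values as they are, 5 over the 8 wild-type arrays, 7 over the 8 knockout arrays, 7 with limits of 0.7 and 0.4, and 1 with the median of the mitosis genes. They numbered 5 without non-clonogenic luminal cells and 1 without myoepithelial cells on the mitosis index. On the S-phase index they numbered 12, 13, 17 and 17 without non-clonogenic luminal, ductal, alveolar and myoepithelial arrays. That index gave 19 over wild-type and 5 over knockout arrays. Counts over the arrays of 1 genotype rest on 4 differences and have no share of other genes beside them.

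Without 1 mouse in turn Xrcc3 ran from -0.01 to 0.25 and Lig4 from -0.07 to 0.02. Signs turned for Xrcc3 without wild-type mouse 2 (-0.01), Lig4 without wild-type mouse 1 (0.02), Trp53bp1 with the most variable probe set (0.09), Rad50 with the mean (0.03) and the most variable probe set (0.24), Eme1 in myoepithelial against luminal cells of wild-type arrays (-0.08), and Fanci in non-clonogenic luminal cells against alveolar progenitors with the most variable probe set (0.00). The cause was not tested.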

Other observations

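Some repair genes outside the main set differed between populations. Mad2l2, a subunit of the shieldin complex and of the translesion polymerase zeta, gave -1.95 ± 0.11 for myoepithelial minus luminal cells (limma adjusted p = 3.35e-08) and 1.44 ± 0.14 for ductal minus alveolar progenitors (adjusted p = 1.32e-05). It read 10.18 and 10.05 in knockout and 10.30 and 10.67 in wild-type non-clonogenic luminal cells, and 7.60 and 7.78 in knockout and 7.74 and 8.02 in wild-type myoepithelial cells. That is the order of populations also seen for Fancg. Ddb2, which finds ultraviolet lesions for nucleotide excision, gave -1.23 ± 0.12 (adjusted p = 2.72e-06) and Neil1, an oxidised base glycosylase, -0.71 ± 0.09 (adjusted p = 3.14e-05), myoepithelial minus luminal. Wee1, a kinase that holds back mitosis, gave -0.90 ± 0.13 for ductal minus alveolar progenitors (adjusted p = 0.000291), with 10.57 and 10.81 in knockout and 10.28 and 10.02 in wild-type alveolar progenitors.

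Brcc3, a deubiquitinase of a BRCA1 complex, was the one gene of these repair lists whose knockout difference varied between populations (adjusted p = 0.0271). It read 4.22 and 4.46 in knockout and 6.00 and 5.30 in wild-type ductal progenitors, and 4.63 and 4.68 in knockout and 4.39 and 4.33 in wild-type myoepithelial cells, most of them below the lower quartile of the probe sets on each array.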
